A study of Mus musculus with 9 samples.

Results

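The 4 Ebf genes of the mouse, Ebf1, Ebf2, Ebf3 and Ebf4, and 3 noncoding genes that lie inside Ebf2 on the opposite strand, Gm6878, 4930438E09Rik and Gm23178, were examined in the trigeminal ganglion (TG). These 7 genes, of 55180 with a name in the annotation, were chosen by gene name and by position, with differences between the groups in these libraries already known. Their levels are therefore given as a description, and no conclusion is drawn from a p-value or a call on them. They had 28 transcripts among the 142497 listed. The position rule finds an 8th gene, 1700120O09Rik, which was not on the list of members, and its values are given beside theirs.

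RNA was sequenced from 9 libraries, each a pool of unilateral TG from 3 mice. The mice were male wild-type C57BL/6 animals of 8 weeks. In the CFA groups the temporomandibular joint (TMJ) of 1 side was injected with 10 µl of complete Freund's adjuvant (CFA) at 5 mg/ml, and TG was taken on day 3 (CFA3D, libraries 1 to 3) or on day 6 (CFA6D, libraries 4 to 6). The control group (saline, libraries 1 to 3) received 10 µl of saline and was labelled as day 3, so the study has no saline group of day 6, and the day and the adjuvant cannot be told apart in a comparison of CFA6D with saline. Every group had n = 3 pools, and a p-value measures the spread between these pools.

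EBF proteins are transcription factors that bind DNA as dimers through an amino-terminal DNA-binding domain and a helix-loop-helix. EBF1 is required for B lymphocyte development, EBF2 takes part in brown fat cell identity and in the migration of some neurons, and EBF3 acts in neuronal differentiation. EBF4 is the least studied of the family. In olfactory neurons EBF proteins were first known as activators of genes of odour detection. Antisense RNAs are made from the opposite strand of another gene, and an intron is the part of a gene that is removed from its RNA.

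Ebf2 lies on the plus strand at chr14:67233292-67430918 (GRCm38) and has 4 transcript models. Ebf2-203 (5204 bases, 17 exons), Ebf2-201 (4352 bases, 17 exons) and Ebf2-202 (2784 bases, 16 exons) are annotated as protein-coding, and Ebf2-204 (2037 bases, 2 exons) as a retained intron. Ebf2-204 reads on from exon 2 into intron 2, so that 1248 of its bases lie outside the exons of Ebf2-203. The following letters show where both models part, since the results below differ between them. Both windows have 80 bases, are written 5′ to 3′ and begin with the end of exon 2 (chr14:67235226-67235265). The capitals are exon 3 (chr14:67237449-67237488) in Ebf2-203 and intron 2, which opens with GT as most introns do, in Ebf2-204.
Ebf2-203: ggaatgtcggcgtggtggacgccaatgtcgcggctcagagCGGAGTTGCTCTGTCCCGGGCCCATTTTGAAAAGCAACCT
Ebf2-204: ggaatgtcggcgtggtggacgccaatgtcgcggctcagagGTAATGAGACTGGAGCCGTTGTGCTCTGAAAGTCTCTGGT

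Intron 7 of Ebf2-203, of 124.6 kb, separates exon 7 from exon 8 and holds most of the opposite-strand exons. Gm23178 (chr14:67274869-67274963) is a 95-base locus annotated as a miRNA. Gm6878 (chr14:67304888-67314711) is annotated as an antisense RNA of 2018 bases, and its 4 exons are in intron 7. 1700120O09Rik (chr14:67324894-67335928) is annotated as a processed transcript of 977 bases, and its 2 exons are also in intron 7. 4930438E09Rik (chr14:67332042-67397742), an antisense RNA of 776 bases, has 3 of its 6 exons in intron 7, 1 in intron 8 and 2 in intron 11. None of these genes shares an exon base with Ebf2. Each spliced model holds letters that are joined only once an intron has been removed, and the junction over the longest intron of each gene is shown, 5′ to 3′ on the minus strand, with the 2 bases on each side of the junction in capitals. The junction of Gm6878 joins chr14:67310919-67310938 to chr14:67306278-67306297 over 4.62 kb, that of 1700120O09Rik joins chr14:67335566-67335585 to chr14:67325488-67325507 over 10.1 kb, and that of 4930438E09Rik joins chr14:67376981-67377000 to chr14:67356731-67356750 over 20.2 kb.
Gm6878: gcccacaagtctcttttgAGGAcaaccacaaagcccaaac
1700120O09Rik: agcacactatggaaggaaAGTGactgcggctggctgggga
4930438E09Rik: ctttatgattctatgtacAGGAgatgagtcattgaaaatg

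**Figure D1:**
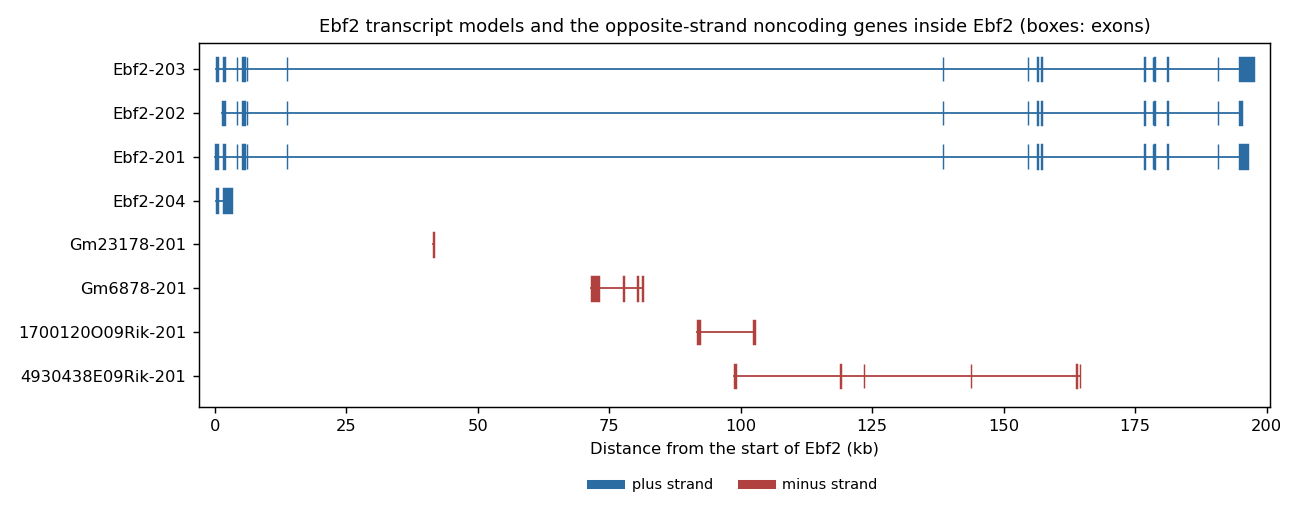
Map of the Ebf2 locus in kb from the start of Ebf2, with exons as boxes, plus-strand models in blue and minus-strand models in red. The 3 protein-coding Ebf2 models share the long intron 7, which holds Gm23178, Gm6878 and 1700120O09Rik and 3 of the 6 exons of 4930438E09Rik, and Ebf2-204 covers only the region of the first 2 exons and part of intron 2.

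Levels are given in FPKM, a read level divided by transcript length and by library depth, which can be set side by side between genes. A gene sum is the total over a gene's transcripts. Depth was approximated from the steps between low values, which put a read pair on 1 kb at 0.0234 to 0.033 FPKM, or 30.3 to 42.7 M read pairs per library. Differences are log2 of FPKM + 0.1 from a limma fit over all 9 libraries, with the standard error (SE) of the fit. A gene was called where the unadjusted p was under 0.05 and the log2 difference at least 1 in size. The study's methods name a stranded kit and the labels a kit that does not mark strand. If strand was not used in counting, RNA of an opposite-strand gene and unspliced RNA of Ebf2 cannot be told apart, and this holds for every value of the 3 noncoding members and of 1700120O09Rik.

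The tissue label was checked against fixed markers. Sensory neuron markers summed to 2527 to 3841 FPKM over the 9 libraries, led by Tubb3, Nefl and Uchl1. Skeletal muscle markers summed to 2.35 to 10.6 FPKM in CFA3D, 1.78 to 79.7 FPKM in CFA6D and 5.30 to 181.8 FPKM in saline, and brown adipocyte genes reached 169.1 FPKM in the same library that was highest for muscle (saline 2). In CFA6D 4, the lncRNA table summed to 70257 FPKM against 8151 to 8911 FPKM in the other 8 libraries. Other noncoding RNAs, with Gm23178 among them, summed to 757382 FPKM in CFA6D 4 and 793311 FPKM in CFA6D 6. In the remaining libraries they summed to 959524 to 1207550 FPKM.

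Ebf1 was the most abundant family member. Its gene sums were 22.7, 18.4 and 17.1 FPKM in the saline libraries, 20.3, 20.8 and 20.7 FPKM in the CFA3D libraries and 22.7, 21.5 and 20.2 FPKM in the CFA6D libraries. The groups overlapped, with means of 19.4 ± 2.96, 20.6 ± 0.244 and 21.5 ± 1.25 FPKM (SD, n = 3). The log2 difference from saline was 0.10 (SE 0.11) for CFA3D and 0.15 (SE 0.11) for CFA6D.

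Ebf3 was second. Its gene sums were 11.1, 9.87 and 10.2 FPKM in saline, 9.64, 9.16 and 10.3 FPKM in CFA3D and 10.9, 11.3 and 12.3 FPKM in CFA6D. The CFA6D libraries lay above the CFA3D libraries and overlapped with saline. The log2 difference was 0.25 (SE 0.09) between CFA6D and CFA3D and 0.15 (SE 0.09) between CFA6D and saline.

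Ebf4 was listed at 5.31, 4.83 and 3.90 FPKM in saline, at 5.69, 5.03 and 5.29 FPKM in CFA3D and at 4.97, 5.22 and 5.28 FPKM in CFA6D. These groups overlapped, and the log2 difference from saline was 0.20 (SE 0.13) for CFA3D and 0.15 (SE 0.13) for CFA6D.

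Ebf2 had gene sums of 5.27, 4.55 and 5.58 FPKM in saline, 4.84, 8.02 and 7.51 FPKM in CFA3D and 2.79, 4.08 and 2.34 FPKM in CFA6D. Each CFA6D library was below each of the other 6, while 1 CFA3D library lay within the saline range and the other 2 above it. The means were 5.13 ± 0.528, 6.79 ± 1.71 and 3.07 ± 0.902 FPKM. The log2 difference was -0.75 (SE 0.23) between CFA6D and saline, -1.12 (SE 0.23) between CFA6D and CFA3D, and 0.37 (SE 0.23) between CFA3D and saline. The difference between CFA6D and CFA3D was -0.95 without CFA6D 6, -0.99 without CFA3D 2 and -0.93 with a pseudocount of 1 FPKM. It was -0.98 on approximate read pairs, which were not scaled to depth. In each of these cases it was no longer called. In whole tissue, fewer cells of a type and less RNA per cell cannot be told apart.

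The order of the family by mean level in saline was thus Ebf1, Ebf3, Ebf2 and Ebf4. Ebf1 and Ebf3 did not overlap with each other or with the rest in any group. Ebf2 and Ebf4 overlapped in saline and in CFA3D, and in CFA6D the highest Ebf2 value (4.08 FPKM) was under the lowest Ebf4 value (4.97 FPKM). The ratio of Ebf1 to Ebf2 was 3.81 ± 0.656 in saline, 3.18 ± 0.885 in CFA3D and 7.35 ± 1.82 in CFA6D (SD, n = 3).

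**Figure D2:**
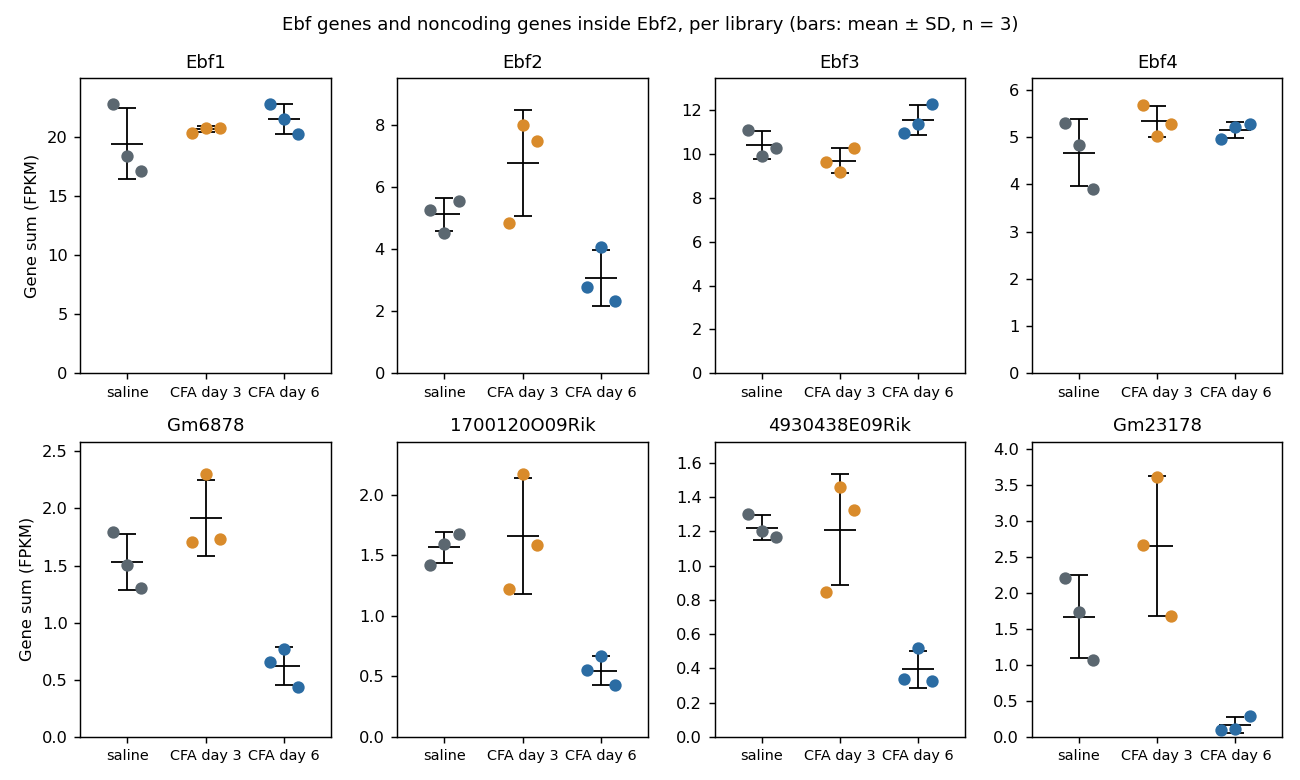
Gene sums in FPKM of the 4 Ebf genes and of the noncoding genes inside Ebf2, with 1 point per library and bars for the mean ± SD of n = 3 libraries. The CFA6D points of Ebf2, Gm6878, 1700120O09Rik, 4930438E09Rik and Gm23178 lie below all saline and CFA3D points, and those of Ebf1, Ebf3 and Ebf4 do not.

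Gm6878, an antisense RNA of no function named here, was listed at 1.79, 1.51 and 1.30 FPKM in saline, at 1.71, 2.30 and 1.73 FPKM in CFA3D and at 0.656, 0.771 and 0.438 FPKM in CFA6D. The CFA6D libraries were below the other 6, and the saline and CFA3D ranges overlapped. These levels rest on about 92.1 to 184.2 read pairs per library in saline and CFA3D and 34.1 to 59.6 in CFA6D. The log2 difference was -1.20 (SE 0.22) between CFA6D and saline and -1.50 (SE 0.22) between CFA6D and CFA3D. It was 0.30 (SE 0.22) between CFA3D and saline. Without CFA6D 6, whose value was the lowest, the difference from saline was -0.998 and just under the size needed for a call, and with a pseudocount of 1 FPKM it was -0.64.

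4930438E09Rik was listed at 1.30, 1.20 and 1.16 FPKM in saline, at 0.844, 1.46 and 1.33 FPKM in CFA3D and at 0.337, 0.516 and 0.328 FPKM in CFA6D. Again no CFA6D library reached the lowest of the others, which was CFA3D 1. About 28.0 to 44.9 read pairs per library in saline and CFA3D and 9.81 to 15.3 in CFA6D stood behind these levels. The log2 difference was -1.44 (SE 0.24) between CFA6D and saline, -1.40 (SE 0.24) between CFA6D and CFA3D and -0.04 (SE 0.24) between CFA3D and saline. With a pseudocount of 1 FPKM, close to the level itself, the first of these was -0.67.

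Gm23178 was listed at 2.22, 1.73 and 1.07 FPKM in saline, at 2.67, 3.61 and 1.68 FPKM in CFA3D and at 0.0956, 0.106 and 0.293 FPKM in CFA6D. The CFA6D values were all under 0.3 FPKM and the others above 1 FPKM, but the locus is short and few reads stand behind it. Read pairs approximated from FPKM, summed over the libraries of a group and rounded, were about 16 in saline, 30 in CFA3D and 2 in CFA6D. The CFA6D libraries had 0.363, 0.387 and 1.07, so these are not observed counts. Per read pair of depth this was a ratio of 0.109 between CFA6D and saline (95% binomial interval 0.0122 to 0.463) and 0.0677 between CFA6D and CFA3D (95% binomial interval 0.00784 to 0.267). The intervals treat the rounded sums as counts, cover counting error only and leave out the spread between libraries. The fitted log2 difference was -2.76 (SE 0.38) between CFA6D and saline, -3.39 (SE 0.38) between CFA6D and CFA3D and 0.63 (SE 0.38) between CFA3D and saline. These sizes depend on the pseudocount, and with 1 FPKM the difference from saline was -1.18. Libraries of this kind are not made to hold mature miRNAs, so the value is a level of longer RNA over the annotated locus.

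1700120O09Rik, whose 5′ part lies within the span of 4930438E09Rik on the same strand, was listed at 1.42, 1.59 and 1.68 FPKM in saline, at 1.22, 2.17 and 1.58 FPKM in CFA3D and at 0.549, 0.671 and 0.425 FPKM in CFA6D. Its CFA6D values were also below those of the other 6 libraries. In limma over the lncRNA table, the log2 difference was -1.38 (SE 0.23, adjusted p = 0.0736) between CFA6D and saline and -1.42 (SE 0.23, adjusted p = 0.0545) between CFA6D and CFA3D, and neither passed 0.05 after Benjamini-Hochberg adjustment. Between CFA3D and saline it was 0.05 (SE 0.23, adjusted p = 0.996). Gm10860, a 5th opposite-strand gene that crosses the 3′ end of Ebf2, was at 0 to 0.127 FPKM and was too low to be tested.

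The calls over the members were counted beside the background of each table, and since the members were chosen with these results known, nothing is read from the comparison. All 7 gene sums passed the minimum of 0.1 FPKM. Between CFA3D and saline 0 of 7 were called, where 0.341% of mRNA, 0.993% of lncRNA and 2.26% of other noncoding gene sums were called. Between CFA6D and saline 3 of 7 were called lower (Gm6878, 4930438E09Rik and Gm23178), where 0.192% of mRNA, 0.775% of lncRNA and 1.25% of other noncoding gene sums were called lower. Between CFA6D and CFA3D 4 of 7 were called lower, with Ebf2 as the 4th, where the background was 0.143%, 0.727% and 1.24%. In 4 of the 7 each CFA6D library was below each of the other 6, which held for 2.66% of mRNA, 2.16% of lncRNA and 1.97% of other noncoding gene sums. The comparisons share their CFA6D libraries and are not independent of each other.

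The noncoding members were also set against Ebf2 within each library. The ratio of 4930438E09Rik to Ebf2 was 0.240 ± 0.0282 in saline, 0.178 ± 0.00379 in CFA3D and 0.129 ± 0.00996 in CFA6D (SD, n = 3). That of Gm6878 was 0.302 ± 0.0592, 0.290 ± 0.0615 and 0.204 ± 0.0270, and that of Gm23178 was 0.331 ± 0.123, 0.409 ± 0.168 and 0.0619 ± 0.0551. The mean ratios were lowest in CFA6D for each of these genes.

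The transcript models of Ebf2 differed from each other. Ebf2-204, the model with the retained intron, was at 1.81, 1.28 and 1.25 FPKM in saline, 1.67, 1.75 and 1.62 FPKM in CFA3D and 0.566, 0.541 and 0.326 FPKM in CFA6D. The CFA6D values were below the other 6, and the log2 difference was -1.43 (SE 0.24) from saline and -1.65 (SE 0.24) from CFA3D. With a pseudocount of 1 FPKM these were -0.73 and -0.86. About 25.6 to 46.0 read pairs per CFA6D library and 79.2 to 145.6 per other library stood behind it. Of its 2037 bases, 1248 are in intron 2, which unspliced Ebf2 RNA also holds on the same strand. In total RNA, reads of that RNA and of this model cannot be told apart.

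Ebf2-202, the shortest protein-coding model, was at 1.67, 2.41 and 2.02 FPKM in saline, 1.65, 5.11 and 4.13 FPKM in CFA3D and 1.17, 1.69 and 1.16 FPKM in CFA6D. The high Ebf2 sums of CFA3D 2 and CFA3D 3 were thus in this model, and the CFA6D values overlapped with CFA3D 1 and with saline. Its log2 difference was -1.25 (SE 0.38) between CFA6D and CFA3D, -0.57 (SE 0.38) between CFA6D and saline and 0.68 (SE 0.38) between CFA3D and saline. Without CFA3D 2 the first of these was -0.94.

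Ebf2-203 was at 1.76, 0.773 and 2.25 FPKM in saline, 1.29, 1.02 and 1.70 FPKM in CFA3D and 0.958, 1.06 and 0.748 FPKM in CFA6D, with overlap between the groups. Its log2 difference between CFA6D and saline was -0.63 (SE 0.37). Ebf2-201 was at most 0.225 FPKM in 8 libraries and at 0.793 FPKM in CFA6D 5, so the mean of its group rests on that library. The 3 protein-coding models together summed to 3.68 ± 0.565 FPKM in saline, 5.11 ± 1.69 FPKM in CFA3D and 2.59 ± 0.824 FPKM in CFA6D (SD, n = 3), and CFA6D 5 (3.54 FPKM) lay within the saline range of 3.26 to 4.32 FPKM. The share of Ebf2-204 in the gene sum, which can include unspliced Ebf2 RNA, was 22.5 to 34.4% in saline, 21.6 to 34.6% in CFA3D and 13.3 to 20.3% in CFA6D.

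**Figure D3:**
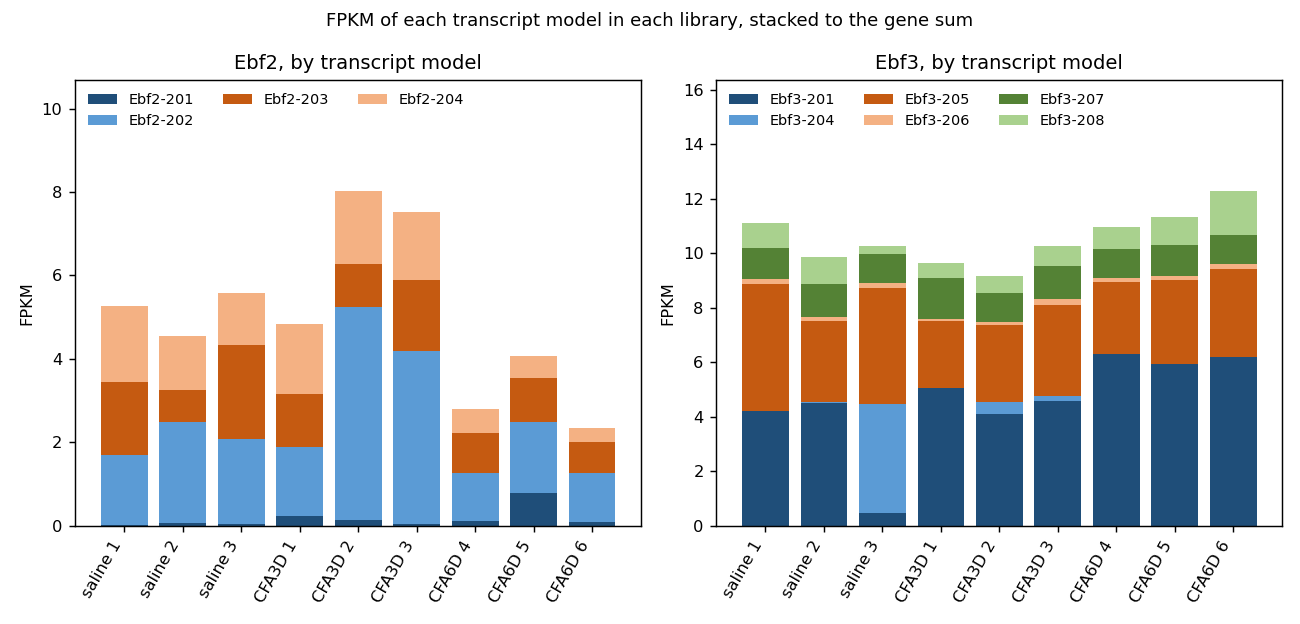
FPKM of each transcript model of Ebf2 (left) and Ebf3 (right) in each library, stacked to the gene sum. Ebf2-204 is thin in the 3 CFA6D libraries (0.326 to 0.566 FPKM), Ebf2-202 is thick in CFA3D 2 and CFA3D 3, and in saline 3 Ebf3-204 takes the place that Ebf3-201 has in the other libraries.

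Ebf3 (chr7:137193673-137314445, minus strand) had 8 models, of which Ebf3-202 and Ebf3-203 were listed at 0 in each library. Ebf3-201 was at 4.20, 4.51 and 0.474 FPKM in saline, 5.05, 4.11 and 4.59 FPKM in CFA3D and 6.29, 5.94 and 6.19 FPKM in CFA6D. Ebf3-204 was at 3.99 FPKM in saline 3 and at 0.000244 to 0.440 FPKM in the other 8 libraries. All 4838 exon bases of Ebf3-201 are also in Ebf3-204, which has 156 more, so reads can be split between them. Added together, a step taken after the values were seen, they gave 4.22, 4.53 and 4.46 FPKM in saline, 5.05, 4.55 and 4.77 FPKM in CFA3D and 6.29, 5.94 and 6.19 FPKM in CFA6D, with the CFA6D values above all others. Ebf3-208 ranged from 0.259 FPKM in saline 3 to 1.60 FPKM in CFA6D 6, and Ebf3-206 from 0.0860 to 0.207 FPKM. Ebf3-205, a shorter protein-coding model of 1863 bases, was at 4.64, 2.99 and 4.25 FPKM in saline, 2.45, 2.82 and 3.34 FPKM in CFA3D and 2.66, 3.08 and 3.22 FPKM in CFA6D, and its log2 difference from saline was -0.44 (SE 0.20) in CFA3D and -0.38 (SE 0.20) in CFA6D. The retained intron Ebf3-207, of 1 exon and 4008 bases, was at 1.05 to 1.49 FPKM in all 9 libraries, with a log2 difference of -0.06 (SE 0.18) between CFA6D and saline.

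Ebf1 (chr11:44617317-45008091, plus strand) had 7 models. Ebf1-201 took 49.3 to 57.8% of the gene sum, with 11.2, 10.1 and 9.22 FPKM in saline, 10.2, 10.7 and 11.6 FPKM in CFA3D and 12.9, 12.2 and 11.7 FPKM in CFA6D. The CFA6D values were above the others, by a log2 difference of 0.27 (SE 0.11) from saline and 0.17 (SE 0.11) from CFA3D. Ebf1-207, annotated as a processed transcript of 3968 bases, was at 4.19, 3.87 and 3.17 FPKM in saline, 4.24, 4.21 and 3.80 FPKM in CFA3D and 2.83, 3.44 and 3.31 FPKM in CFA6D. Its CFA6D values overlapped with saline and lay below each CFA3D value. The log2 difference of Ebf1-207 was -0.22 (SE 0.15) between CFA6D and saline and -0.35 (SE 0.15) between CFA6D and CFA3D. The other 5 models of Ebf1 had log2 differences of -0.18 to 0.31 between CFA6D and saline, and none was called.

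Ebf4 (chr2:130295169-130370481, plus strand) had 6 models, of which Ebf4-202 was listed at 0 in each library. The protein-coding Ebf4-201 was at 0.611, 0.863 and 0.400 FPKM in saline, 0.640, 0.850 and 0.887 FPKM in CFA3D and 1.82, 1.64 and 0.908 FPKM in CFA6D. Its CFA6D values were above the others, narrowly in CFA6D 6, with a log2 difference of 1.10 (SE 0.33) from saline and 0.76 (SE 0.33) from CFA3D. The difference from saline was 0.86 without saline 3, 0.92 without CFA6D 4, 0.99 without CFA6D 5 and 0.59 with a pseudocount of 1 FPKM, each under the size needed for a call. Ebf4-204 and Ebf4-206, annotated as targets of nonsense-mediated decay, were each listed at 0 in 2 libraries, of which CFA6D 5 was common to both. Ebf4-203, the model with the highest mean, took 34.2 to 58.2% of the gene sum and had a log2 difference of -0.07 (SE 0.25) between CFA6D and saline.

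Of the 25 transcripts of the 4 Ebf genes, 22 passed the minimum and 3 were listed at 0 throughout. Between CFA3D and saline 0 were called, against 2.19% of all mRNA transcripts tested. Between CFA6D and saline 1 was called lower (Ebf2-204) and 1 higher (Ebf4-201), against 1.1% called lower and 1.47% called higher, and between CFA6D and CFA3D 2 were called lower (Ebf2-204 and Ebf2-202), against 1.05%. The models were chosen with their genes, and these counts are a description.

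The other Ebf genes also hold opposite-strand lncRNAs, which the list of members did not contain. Gm12158 in Ebf1 was at 3.14, 2.61 and 2.70 FPKM in saline, 3.66, 3.55 and 3.53 FPKM in CFA3D and 2.26, 2.98 and 2.34 FPKM in CFA6D. It was higher in each CFA3D library than in the other 6, with log2 differences of 0.34 between CFA3D and saline and -0.50 between CFA6D and CFA3D, and was not called. In Ebf3, Gm10578 (0.640 to 0.886 FPKM) and Gm45278 (0.494 to 0.906 FPKM) overlapped between the groups, with log2 differences of 0.04 and 0.06 between CFA6D and saline. No gene of this kind overlapped Ebf4 in these tables.

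The genes around Ebf2 were examined to see how far the low CFA6D values reached. Within 1 Mb on either side and not wholly inside Ebf2, 36 genes were listed, with the untested Gm10860 among them. Of these, 21 were tested, and 0 were called in any of the 3 comparisons. In 0 of the 21 tested genes did the CFA6D libraries lie below the other 6. A gene at 0 FPKM in a saline or CFA3D library, such as Gm20675, could not show this pattern. The median log2 difference of the 14 protein-coding neighbours was 0.21 between CFA6D and saline and 0.00 between CFA6D and CFA3D. Bnip3l, a mitophagy receptor, was at 22.1 ± 0.715 FPKM in saline and 22.3 ± 1.69 FPKM in CFA6D, and Ppp2r2a, a regulatory subunit of protein phosphatase 2A and the nearest protein-coding gene on the upstream side, was at 10.4 ± 0.711 and 11.6 ± 0.555 FPKM.

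Dpysl2, which encodes the axon growth protein CRMP2, was at 111.1 ± 6.06 FPKM in saline, 127.9 ± 7.45 FPKM in CFA3D and 145.5 ± 11.3 FPKM in CFA6D (log2 difference 0.39 between CFA6D and saline, limma adjusted p = 0.156). Nefm, the neurofilament medium chain, was at 244.6 ± 19.6 FPKM in saline and 375.0 ± 82.6 FPKM in CFA6D (log2 difference 0.60, limma adjusted p = 0.271), and Nefl, the light chain, at 542.7 ± 65.9 and 617.4 ± 65.9 FPKM. None of these passed the adjusted threshold. On the other side of Ebf2, the nearest protein-coding genes were Cdca2, a cell division protein (0.299 ± 0.0582 and 0.623 ± 0.558 FPKM in saline and CFA6D), and Kctd9 (7.48 ± 0.518 and 8.69 ± 0.307 FPKM). The other protein-coding neighbours (Ptk2b, Trim35, Stmn4, Adra1a, Pnma2, Gnrh1 and Dock5) had log2 differences of -0.31 to 0.62 between CFA6D and saline. Gm20675, an RNA whose start lies next to that of Ebf2 on the opposite strand, was at 0 to 0.266 FPKM, and its log2 difference of 0.94 (SE 0.53, adjusted p = 0.782) was not called.

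**Figure D4:**
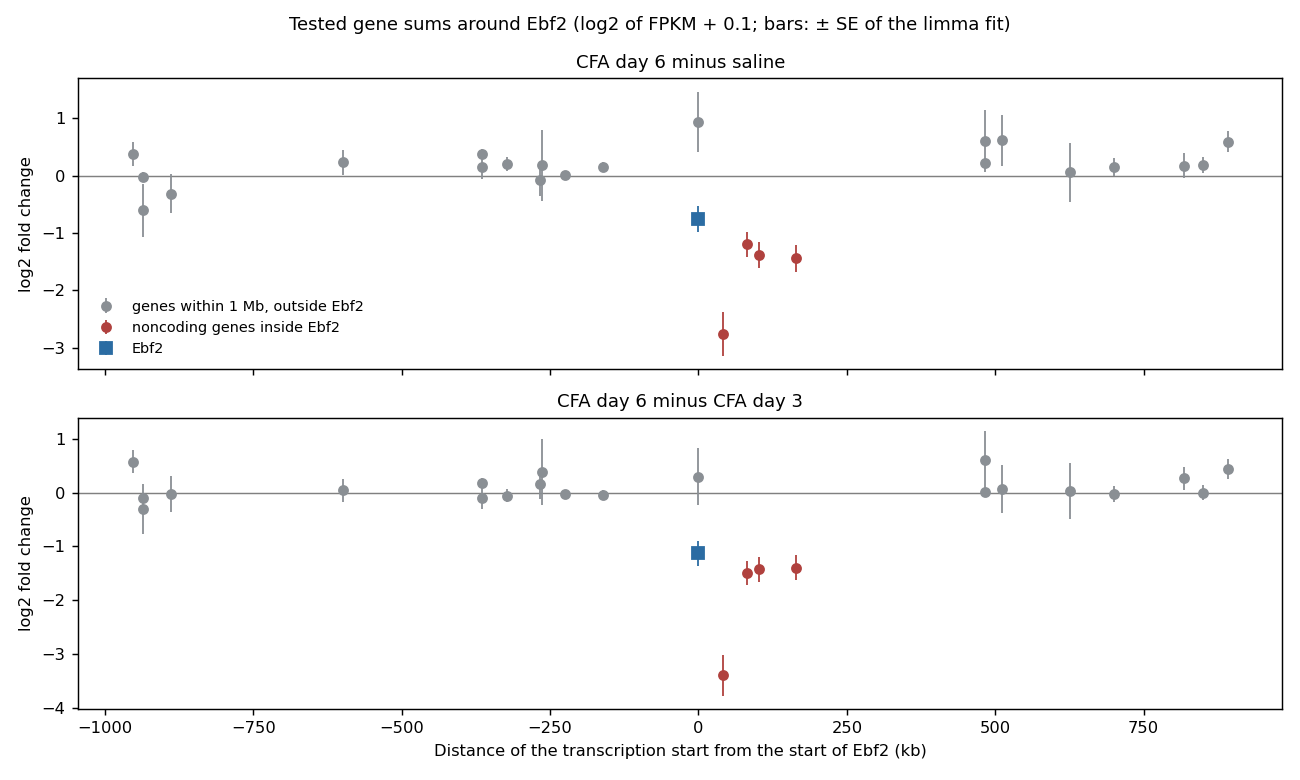
Log2 differences in FPKM + 0.1 of the tested genes within 1 Mb of Ebf2 by distance of their start from the start of Ebf2 in kb, between CFA6D and saline (top) and between CFA6D and CFA3D (bottom), with bars of ± 1 SE. Ebf2 and the noncoding genes inside it lie between -0.75 and -3.39, and no neighbour was called.

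Genes that work with or under EBF proteins were taken from fixed lists. Of 11 EBF partner proteins, 11 were tested and 0 were called in any comparison, with a median log2 difference of 0.09 between CFA6D and saline, beside 0.03 over all gene sums. Smarca4, an ATPase of the BAF chromatin remodelling complex, was at 16.4 ± 1.18, 18.1 ± 0.747 and 20.7 ± 1.40 FPKM in saline, CFA3D and CFA6D (log2 difference 0.34 between CFA6D and saline, limma adjusted p = 0.181). Runx1 was at 11.2 ± 1.89 FPKM in saline and 13.5 ± 0.907 FPKM in CFA6D, and Cnot3, of the deadenylase complex, at 9.63 ± 1.88 and 10.2 ± 0.739 FPKM.

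Of 19 sensory neuron identity factors, 17 were tested and 0 called, with a median of 0.30 between CFA6D and saline. Klf7, a factor of nociceptor maintenance, was at 23.6 ± 1.38, 27.5 ± 1.24 and 31.1 ± 1.87 FPKM (adjusted p = 0.125 between CFA6D and saline), Maf at 23.2 ± 2.85, 26.5 ± 0.767 and 27.2 ± 0.630 FPKM, and Isl1, which specifies sensory neurons, at 23.2 ± 2.77, 27.2 ± 3.58 and 22.3 ± 1.10 FPKM. Of 7 olfactory neuron genes known as EBF targets, 6 were tested and 0 called, with a median of 0.08. They were led by Gnal, an olfactory G protein subunit, at 23.2 ± 2.80, 30.0 ± 0.833 and 31.9 ± 4.28 FPKM, followed by Ncam2 at 5.15 ± 0.664, 4.38 ± 0.682 and 4.77 ± 0.149 FPKM and by the adenylyl cyclase Adcy3 at 4.12 ± 0.289, 4.02 ± 0.181 and 4.72 ± 0.104 FPKM.

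Of 11 B cell genes known as EBF1 targets, 9 were tested. The most abundant, the B cell receptor chain Cd79a, was at 0.957 ± 0.0569, 0.675 ± 0.235 and 1.49 ± 1.02 FPKM, and the signal of this list was low, with 1.76 to 8.45 FPKM summed over the list. Cd79b was at 0.583 ± 0.268, 0.454 ± 0.267 and 0.794 ± 0.717 FPKM. Only Vpreb1, a surrogate light chain of early B cells, was called, lower in CFA6D than in saline (0.371 ± 0.240 and 0.0882 ± 0.0871 FPKM, log2 difference -1.32, adjusted p = 0.404). Of 13 brown adipocyte genes, 12 were tested. Adipoq was called lower in CFA3D and Cox7a1 lower in CFA6D, each against saline (limma adjusted p = 0.997 and 0.421). Both were highest in saline 2, where Ucp1, the defining gene of brown fat, was at 18.3 FPKM against at most 0.354 FPKM elsewhere. Adipoq was at 0.267, 5.91 and 0.0578 FPKM in saline and listed at 0 in each CFA3D library. Cox7a1 was at 5.40, 19.8 and 5.12 FPKM in saline and at 2.45, 3.46 and 5.62 FPKM in CFA6D. Cidea (14.3 ± 11.9 FPKM in saline) and Fabp4 (26.0 ± 43.8 FPKM) had an SD close to or above their mean in that group. Ebf2 in saline 2 (4.55 FPKM) was the lowest of the saline libraries.

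Markers of other cells that can express Ebf genes were set beside the Ebf2 result. The 12 fibroblast markers summed to 516.5 to 650.7 FPKM in saline, 521.4 to 785.6 FPKM in CFA3D and 398.7 to 617.5 FPKM in CFA6D, with 0 called. Their median log2 difference was -0.23 between CFA6D and saline and -0.32 between CFA6D and CFA3D. Dcn, the matrix protein decorin, was at 295.7 ± 28.5, 327.7 ± 67.0 and 212.8 ± 58.9 FPKM, Col1a2 at 78.3 ± 12.4, 82.5 ± 24.6 and 100.1 ± 45.5 FPKM and Ogn at 62.1 ± 5.63, 72.9 ± 6.90 and 55.3 ± 11.5 FPKM. The 10 pericyte and smooth muscle markers summed to 67.1 to 89.0, 73.9 to 112.7 and 61.8 to 115.6 FPKM, with 0 called, led by Vtn, Rgs5 and Tagln (26.8 ± 11.4, 15.0 ± 0.401 and 12.2 ± 1.86 FPKM in saline). The pericyte and smooth muscle median was 0.10 between CFA6D and saline and 0.04 between CFA6D and CFA3D. The part of fibroblasts and pericytes in the Ebf2 difference was not tested.

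The 8 macrophage markers, led by C1qa, C1qb and C1qc (26.5 ± 3.50, 23.7 ± 3.15 and 23.3 ± 2.45 FPKM in saline), summed to 93.5 to 115.0, 79.1 to 140.5 and 54.9 to 88.6 FPKM, with 0 called. Their median log2 difference was -0.35 between CFA6D and saline and -0.39 between CFA6D and CFA3D, beside 0.03 and -0.02 over all gene sums. The part of macrophages in the Ebf2 difference was not tested. The satellite glia markers included Apoe and Glul, at 373.1 ± 80.5 and 211.1 ± 29.4 FPKM in saline and 357.5 ± 54.9 and 206.4 ± 37.1 FPKM in CFA6D. The 8 endothelial markers, led by Esam, Cdh5 and Cldn5, summed to 34.5 to 43.9, 36.1 to 57.6 and 35.7 to 47.3 FPKM, with 0 called in either of these lists. The endothelial median was 0.01 between CFA6D and saline and -0.10 between CFA6D and CFA3D. Of the 12 sensory neuron markers 0 were called, with a median of 0.24 between CFA6D and saline and 0.04 between CFA6D and CFA3D. Of the Schwann cell markers reported here only Egr2, a factor of myelination, was called, higher in CFA6D than in saline (13.2 ± 1.43 and 5.94 ± 2.84 FPKM, log2 difference 1.27, adjusted p = 0.444) and than in CFA3D (4.79 ± 4.26 FPKM, log2 difference 1.78, adjusted p = 0.614). Of the 8 skeletal muscle markers only Myh1 was called, lower in CFA3D than in saline (0.258 ± 0.311 and 7.89 ± 8.01 FPKM, adjusted p = 0.997), and the list is led by Acta1, Tnnt3 and Mylpf. Of the 8 osteoblast markers, led by Spp1, Alpl and Bglap, only Ibsp was called, higher in CFA6D than in CFA3D (4.14 ± 3.41 and 1.21 ± 0.501 FPKM, adjusted p = 0.665), and this list was highest in a CFA6D library, at 154.3 FPKM. None of the genes on these lists had an adjusted p under 0.05 in limma.

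For each Ebf gene, the 5 mRNA gene sums with the highest Pearson correlation over the 9 libraries were taken from 13184 with a mean of at least 1 FPKM. They are the highest of many and are named without a test. For Ebf2 they were Aspa (r = 0.948), Ccpg1os (0.934), Akr1b3 (0.932), Klhl22 (0.929) and Zcchc17 (0.917). Aspa, which splits N-acetylaspartate, was at 14.9 ± 0.702, 16.0 ± 1.96 and 11.6 ± 1.16 FPKM in saline, CFA3D and CFA6D, and its log2 difference between CFA6D and saline was -0.36. Akr1b3, an aldose reductase, was at 16.7 ± 1.17, 17.6 ± 1.99 and 13.2 ± 1.94 FPKM (-0.35). The differences of these 5 genes, from -0.13 to -0.42, were smaller than that of Ebf2. As the genes were chosen by correlation with Ebf2 over these same libraries, a shared direction is built into the choice.

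For Ebf1 the list was Wdr7 (r = 0.983), Uba1 (0.982), Tbcd (0.972), Amigo3 (0.970) and Fryl (0.966). Uba1, the enzyme that activates ubiquitin, was at 92.4 ± 12.0, 99.0 ± 1.71 and 102.9 ± 3.22 FPKM, with its widest spread in saline. For Ebf3 it was Chmp6 (0.914), Pbld2 (0.907), Pacs1 (0.877), Nudt18 (0.868) and Sorl1 (0.862). Chmp6, of the ESCRT-III complex, was at 9.71 ± 0.775, 7.85 ± 0.428 and 10.9 ± 0.993 FPKM. For Ebf4 it was Stx2 (0.951), Stambpl1 (0.935), Pdpk1 (0.928), Ap1s1 (0.926) and Armt1 (0.923), and Stx2, a syntaxin, was at 17.1 ± 2.50, 19.1 ± 0.652 and 18.8 ± 0.236 FPKM.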

How the data were processed

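Total RNA of TG was sequenced in 9 libraries. The values that the authors deposited are in FPKM, listed by transcript in 3 tables for mRNA, lncRNA and other noncoding RNA. The study's methods describe depletion of ribosomal RNA, a stranded kit, trimming with Trimmomatic, mapping to GRCm38 and CLC Genomics Workbench, while the submitters' processing notes name Bowtie 0.12.2 and build mm8 and the labels another kit. The step from reads to FPKM is not given in the sources used here. All per-sample columns were used (0 left out).

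Transcripts were matched by identifier to GENCODE M21 (GRCm38), which held 101539 of 102122 mRNA, 15370 of 15657 lncRNA and 24532 of 24718 other transcripts. Sequences come from its transcripts. Read pairs were approximated from the step of FPKM × length in each library. Values were fitted as log2(FPKM + 0.1) in limma 3.58.1 (R 4.3.3, moderation with a trend), each table by itself, over features with a mean of at least 0.1 FPKM, and p-values were adjusted by Benjamini-Hochberg over the table. The fit was tested on simulated data. The contrast of both CFA days with saline was fitted and is not described. With 3 against 3 libraries the smallest permutation p is 0.1, so none is given for single genes.

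Named genes were the members and their transcripts, noncoding genes over the other Ebf genes, protein-coding genes within 1 Mb of Ebf2, the 5 most similar gene sums of each Ebf gene, and from each of 14 lists the 3 most abundant and any called. Some markers of the glial lists, and the summed levels of those lists, are not reported here. Ucp1, Gm10860 and Gm20675 were named after their values were seen. The members and lists were chosen with earlier results of these data known.

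Alternatives were other pseudocounts, filters, normalizations and sample sets, and approximate read pairs without scaling to depth. Further ones were the transcript with the highest mean, a replicate block and leaving out each library. The promoter of Ebf2 and a sequence of Gm23178 were not used here. The circRNAs were not analysed here. The remaining steps ran in Python 3.11.15 with pandas 2.3.3, scipy 1.17.1 and matplotlib 3.10.9.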

Additional observations from a re-analysis of the deposited data

Results flagged for a closer look

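In 4 genes and 2 transcripts the log2 difference between CFA6D and CFA3D met the rule for a call (unadjusted p under 0.05 in limma and at least 1 in size). The log2 difference between CFA6D and CFA3D was -1.12 for Ebf2, -1.50 for Gm6878, -1.40 for 4930438E09Rik and -3.39 for Gm23178. It was -1.25 for the transcript Ebf2-202 and -1.65 for the retained intron Ebf2-204. The CFA6D and CFA3D values of Ebf2-202 overlapped, and its difference rests on the high CFA3D libraries 2 and 3, and that of Gm23178 on about 2 read pairs in CFA6D. The members were chosen with these differences known, so meeting the rule is no evidence of a difference, and the values are a description.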

How the results depend on the processing

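Over 102 values of single members and transcripts, 1583 alternative values were computed, of which 43 moved by more than the spread between replicates and 0 turned the sign of a called value. With a pseudocount of 1 FPKM, 0 of the Ebf gene sums were called between CFA6D and CFA3D in place of 1, and 1 of the noncoding members in place of 3 in either CFA6D comparison. Member transcripts called then numbered 2 in place of 5 against saline and 1 in place of 5 against CFA3D, and list genes 1 in place of 2 (CFA3D with saline) and 1 in place of 3 (CFA6D with saline). A higher pseudocount shrinks differences of low values by construction. Approximate read pairs were fitted without scaling to depth, which was 30.3 to 40.5 M in the saline and 36.3 to 42.7 M in the CFA libraries. Differences in depth thus enter every value of that fit. In it, 0 Ebf gene sums were called between CFA6D and CFA3D and 8 member transcripts between CFA6D and saline. List genes called were 6 in CFA3D with saline and 5 in CFA6D with CFA3D. With a mean of at least 1 FPKM, 3 member transcripts were called between CFA6D and saline and 1 list gene between CFA3D and saline. Without a filter 1 list gene was called in CFA3D with saline and 1 in CFA6D with CFA3D, and with only the groups compared 6 in CFA3D with saline. With the transcript of the highest mean in place of the gene sum, 1 gene near Ebf2 was called between CFA6D and CFA3D, and list genes called were 0, 0 and 1 in the 3 comparisons. The cause of these changes was not tested unless stated.

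Leaving out 1 library at a time gave 0 to 1 Ebf gene sums called between CFA6D and CFA3D (0 without CFA3D 2 or CFA6D 6), 2 to 3 noncoding members between CFA6D and saline (2 without CFA6D 6), 0 to 1 member transcripts between CFA3D and saline (1 without CFA3D 1), 4 to 7 between CFA6D and saline and 4 to 6 between CFA6D and CFA3D. Genes near Ebf2 were called in 0 to 2 cases between CFA3D and saline (2 without CFA3D 3) and 0 to 1 between CFA6D and saline (1 without saline 3 or CFA6D 5). List genes called ranged from 0 (without saline 2) to 13 (without saline 3) between CFA3D and saline, from 0 (without CFA6D 5) to 9 (without CFA6D 4 or CFA6D 6) between CFA6D and saline, and from 1 (without saline 2 or CFA3D 2) to 12 (without CFA6D 4) between CFA6D and CFA3D, so these counts rest on single libraries. With the replicate number as a replicate block, which is possible only for CFA3D and saline, 0 Ebf gene sums, 0 noncoding members and 0 member transcripts were called, as without it, and 11 list genes in place of 2, though the numbers did not pair the libraries (r of -0.08 to 0.09 between deviations of same-numbered libraries). At this depth a low FPKM rests on few read pairs, and on fewer the shorter the transcript. Gm23178, of 95 bases, had about 4.10 to 13.6 per library in saline and CFA3D. A small change in a member with few read pairs, or under about 0.1 FPKM, was not detectable.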
